A study of Homo sapiens with 6 samples.

Results

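The myosin heavy and light chains were the genes whose symbol in the deposited table has the form MYH, MYL or MYO followed by a number and, for some, a letter, with pseudogenes left out. Of 43 such genes MYH16, a pseudogene, was removed, which left 42 of the 26819 genes in the table. They comprise 3 heavy chains of non-muscle myosin II, 5 light chains that serve non-muscle and smooth muscle myosin II, 7 heavy and 3 light chains of muscle, and 24 unconventional myosins. GENCODE 29 holds another 8 genes of this naming pattern (MYH1, MYH4, MYH8, MYL1, MYL2, MYL7, MYL10 and MYO3A). The deposited table has no row under these symbols, so they could not be analysed here.

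All cells were of C4-2, a human prostate cancer line that descends from LNCaP and grows without androgen, with the genotype Tet-O-YAP5SA. Doxycycline switches on this transgene, which encodes YAP1, a coactivator of transcription, with alanines in place of the serines through which LATS kinases restrain it. The Ctrl group has 3 libraries from cells without doxycycline and the Dox group has 3 libraries from cells given doxycycline for 24 hours, at a dose labelled as 0.2 mg/ml. Both groups were grown in RPMI medium with 10% fetal bovine serum. Dox against Ctrl addresses what active YAP1 does to the transcriptome, and it is read here on the motor proteins of the actin cytoskeleton. Cells without the transgene that received doxycycline are not part of the design, so an effect of the drug cannot be told apart from that of YAP5SA. The labels do not say that the replicates were separate cultures, so p-values reflect spread among libraries that may be technical only, and in bulk RNA a change of all cells and a change of some cells cannot be told apart.

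Myosins are motors that bind actin filaments and use ATP to move along or pull on them. Myosin II, the contractile class, pairs heavy chains, each carrying an essential and a regulatory light chain, and assembles into bipolar filaments that slide actin filaments past each other. In non-muscle cells its activity is set by phosphorylation of the regulatory light chain, which kinases downstream of RhoA and myosin light chain kinase promote and myosin phosphatase removes. Unconventional myosins do not form such filaments and mostly link membranes or cargo to actin, with calmodulin as the light chain of many of them.

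The deposited levels are in TPM (a unit of relative abundance that corrects for gene length and gives every library an equal sum). Levels of different genes can thus be set side by side, as far as the length used for each gene fits its transcripts. That fit was not tested, and shares and rankings between genes depend on it. The 6 libraries hold 24914226 to 29207519 reads on the 14833 genes tested (those at 1 TPM or more in 3 or more libraries), and intervals and floors based on reads cover counting error only. YAP1 rose 4.74-fold and its target CTGF (CCN2) from at most 0.453 TPM in every Ctrl library to at least 383 TPM in every Dox library. The luminal prostate markers were present, 10 of 10 above 1 TPM, with a summed level of 6586 to 6687 TPM in Ctrl and 5523 to 5624 TPM in Dox. Markers of smooth muscle summed to 2.49 to 2.86 TPM in Ctrl and 1.85 to 2.20 TPM in Dox, and those of fibroblasts to 6.61 to 7.28 and 8.02 to 8.70 TPM. Endothelial markers summed to 1.17 to 1.41 TPM in Ctrl and 3.97 to 4.65 TPM in Dox, and immune markers to 19.0 to 20.8 and 9.37 to 10.3 TPM. In each of these 4 lists 1 marker reached 1 TPM in any library, none was at 0 in all libraries, and their part in the myosin changes was not tested. Of the striated muscle markers, troponin C (TNNC1) was the exception, at 4.20, 4.57 and 4.33 TPM in Ctrl and 78.3, 74.1 and 62.7 TPM in Dox.

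Of the 42 myosin genes 24 could be tested, and 18 of them rose with doxycycline (limma on log2(TPM + 1), Benjamini-Hochberg adjusted p under 0.05). Among all tested genes 53.7% were called, 35.9% higher and 17.8% lower. None of the myosins was called lower, although 1 had an unadjusted p under 0.05 in that direction and limma voom on recovered reads called 2 lower. The median log2 fold change was 0.43 over the tested myosins and 0.10 over all tested genes. All 8 non-muscle myosin II chains rose, with a median of 0.57, and 10 of 14 unconventional myosins rose, with a median of 0.49. MYL9, MYH9 and MYO9A stood at the top, and the 2 muscle light chains that were tested did not pass.

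**Figure D1:**
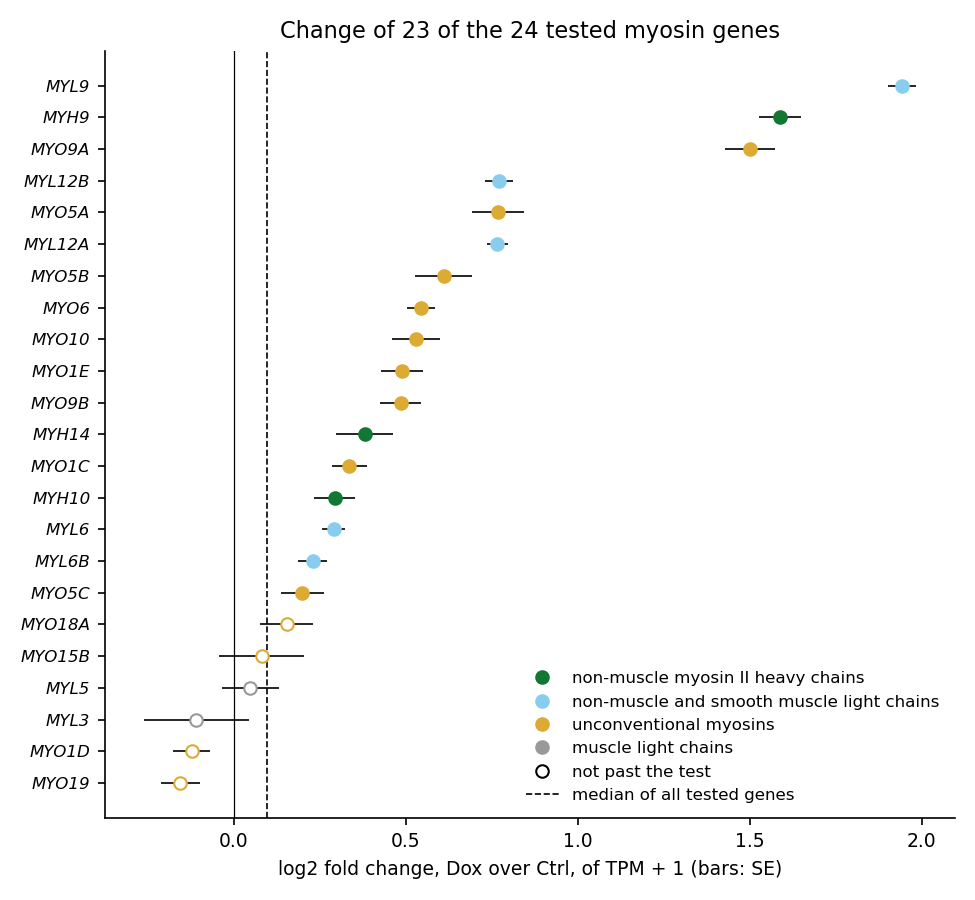
Log2 fold change of TPM + 1, Dox over Ctrl (horizontal axis), with its standard error, for 23 of the 24 tested myosin genes; filled symbols passed the test, and the dashed line is the median of all tested genes (0.10). MYL9, MYH9 and MYO9A lie at 1.50 and above, and the other genes drawn at 0.77 and below.

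These promoters show the sequence upstream of 3 myosin II chains that rose and hold the core motif of TEAD factors, the DNA-binding partners of YAP1, and of MYO9A, which rose among the most and holds none. Each line has 300 bases, 250 before and 50 after the RefSeq start site, 5′ to 3′ on the strand of the gene, in GRCh38.p14. Capitals mark the letters GGAATG on either strand, so CATTCC in MYH10 is the same motif on the other strand.
MYH9 (chr22:36387918-36388217, minus strand): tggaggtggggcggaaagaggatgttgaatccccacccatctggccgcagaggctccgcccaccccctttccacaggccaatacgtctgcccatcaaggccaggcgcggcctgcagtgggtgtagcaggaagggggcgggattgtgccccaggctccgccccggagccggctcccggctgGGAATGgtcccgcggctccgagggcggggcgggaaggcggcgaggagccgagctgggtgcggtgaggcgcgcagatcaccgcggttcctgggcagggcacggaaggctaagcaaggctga
MYH10 (chr17:8630676-8630975, minus strand): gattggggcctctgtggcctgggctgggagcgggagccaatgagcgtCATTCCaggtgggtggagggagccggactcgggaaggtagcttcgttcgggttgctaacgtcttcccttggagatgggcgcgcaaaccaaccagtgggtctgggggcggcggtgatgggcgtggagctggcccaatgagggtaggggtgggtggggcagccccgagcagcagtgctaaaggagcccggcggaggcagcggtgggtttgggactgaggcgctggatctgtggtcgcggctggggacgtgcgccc
MYL12A (chr18:3247232-3247531, plus strand): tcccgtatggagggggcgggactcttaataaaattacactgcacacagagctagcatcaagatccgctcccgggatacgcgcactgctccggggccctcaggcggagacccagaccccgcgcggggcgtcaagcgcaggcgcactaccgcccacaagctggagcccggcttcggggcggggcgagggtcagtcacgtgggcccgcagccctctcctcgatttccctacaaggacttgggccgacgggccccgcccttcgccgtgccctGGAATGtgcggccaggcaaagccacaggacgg
MYO9A (chr15:72118101-72118400, minus strand): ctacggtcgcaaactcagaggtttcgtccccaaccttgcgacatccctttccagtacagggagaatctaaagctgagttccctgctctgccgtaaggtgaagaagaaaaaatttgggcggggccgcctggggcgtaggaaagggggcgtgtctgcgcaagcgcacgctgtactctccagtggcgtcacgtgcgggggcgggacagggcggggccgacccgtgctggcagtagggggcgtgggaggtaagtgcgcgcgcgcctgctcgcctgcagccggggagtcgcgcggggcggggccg

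The match in MYH9 begins 70 bases before the start site, that in MYH10 begins 203 bases before it, and that in MYL12A begins at base 19 of the transcript. Over the 22 tested myosins with a promoter in the table, 3 held GGAATG on either strand, where 14.0% of 35116 promoters of the same length do. The CArG box, the site of serum response factor, was found in 1 of the 22, MYO1E, against 1.3% of all promoters. The AP-1 motif TGANTCA, also searched on both strands, was found in MYL6B alone, against 7.7% of all promoters. These matches describe letters in a short window, and the share with GGAATG is close to that of promoters in general. MYL9 had no entry.

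Non-muscle myosin II heavy chains differ in filament stability and speed, and MYH9 encodes isoform IIA, the main contractile form of many epithelial cells. MYH9 (ENSG00000100345.16) was at 167, 186 and 175 TPM in the Ctrl libraries and at 486, 548 and 561 TPM in the Dox libraries. Each Dox library lay far above each Ctrl library, with Dox 1 the lowest of its group. The mean went from 176 ± 9.57 to 532 ± 39.8 TPM (SD, n = 3), 3.02-fold higher, with a log2 fold change of 1.59 ± 0.06 (SE, limma adjusted p = 7.94e-07). These values rest on 13362 to 44220 reads per library. A stretch of 50 bases of the MYH9 transcripts recurs in another gene in 0.5% of cases, in MYH11.

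MYH10, which encodes isoform IIB, changed far less. Its levels were 38.1, 42.6 and 38.1 TPM in Ctrl and 46.6, 51.4 and 48.1 TPM in Dox. The groups did not overlap, but the highest Ctrl library and the lowest Dox library were 42.6 and 46.6 TPM. The log2 fold change was 0.29 ± 0.06 (limma adjusted p = 0.00401). MYH14, the gene of isoform IIC, was the lowest of the 3, at 16.9, 19.4 and 17.7 TPM in Ctrl and 21.1, 24.8 and 25.5 TPM in Dox. Again the groups did not overlap, but the highest Ctrl library and the lowest Dox library were 19.4 and 21.1 TPM. The log2 fold change of MYH14 was 0.38 ± 0.08 (limma adjusted p = 0.00592). With each library's trend with gene length removed, the log2 fold changes were 0.06 for MYH10 (limma adjusted p = 0.23) and 0.14 for MYH14 (adjusted p = 0.15), and neither passed, whereas MYH9 stood at 1.36 and passed.

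**Figure D2:**
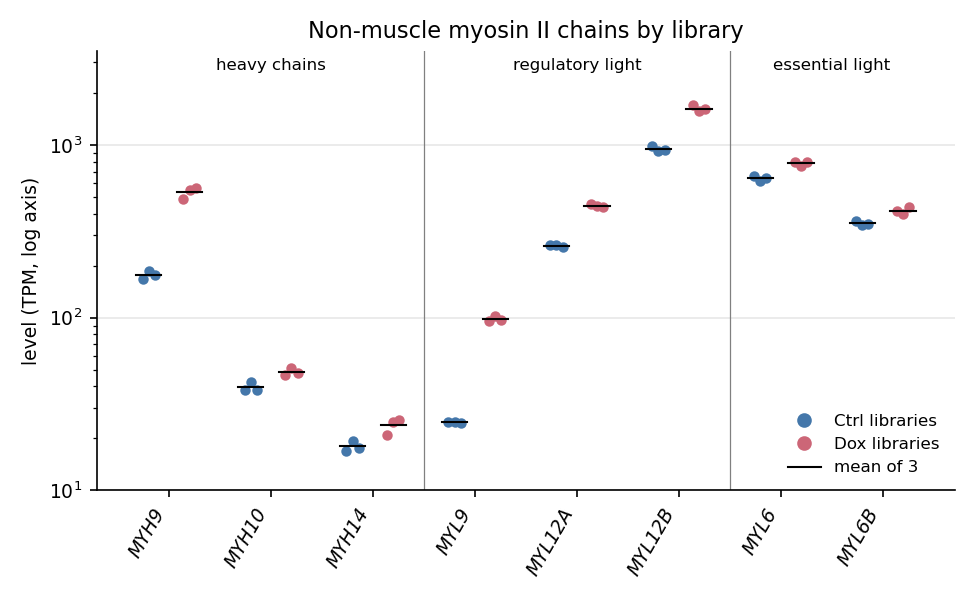
Level in TPM on a log axis of the 8 non-muscle myosin II chains in each of the 3 Ctrl and 3 Dox libraries (points), with the mean of each group (bars). The groups are widest apart for MYL9 and MYH9, and for MYL6B, MYH14 and MYH10 they lie close together without overlap.

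The make-up of the heavy chains shifted towards MYH9. Its share of the summed heavy chain TPM was 75.2, 75.0 and 75.9% in Ctrl and 87.8, 87.8 and 88.4% in Dox. MYH10 went from 16.9 ± 0.402% to 8.08 ± 0.440% and MYH14 from 7.70 ± 0.119% to 3.93 ± 0.1105% of that sum (SD, n = 3). These shares are ratios within a library, so a common scaling factor does not alter them, and no test was made on them. The order MYH9, MYH10, MYH14 was the same in all 6 libraries.

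Regulatory light chains carry the phosphorylation site that switches the motor on. MYL9, the chain named for smooth muscle and also used with non-muscle heavy chains, was at 25.0, 24.8 and 24.4 TPM in Ctrl and at 95.6, 103 and 96.3 TPM in Dox. The Ctrl libraries were nearly equal, and each Dox library was far above them. The mean rose 3.96-fold from 24.8 ± 0.304 to 98.1 ± 3.80 TPM (log2 fold change 1.94 ± 0.04, limma adjusted p = 4.04e-08), the largest among the 24 tested myosins. The same chain was nonetheless the scarcest of the 3 regulatory light chains, at 2.00 ± 0.0416% of their summed TPM in Ctrl and 4.54 ± 0.309% in Dox.

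MYL12B and MYL12A, neighbouring genes for nearly identical non-muscle regulatory light chains, made up the rest. MYL12B was at 985, 925 and 939 TPM in Ctrl and at 1699, 1561 and 1605 TPM in Dox. MYL12A was at 264, 264 and 256 TPM in Ctrl and at 456, 444 and 435 TPM in Dox. Both genes showed a clear gap between the groups and rose by the same factor, 1.71-fold for MYL12B and 1.70-fold for MYL12A. Their log2 fold changes were 0.77 ± 0.04 and 0.77 ± 0.03 (limma adjusted p = 3.4e-06 and 8.9e-07). Because 5.9% of the 50-base stretches of MYL12B and 3.9% of those of MYL12A occur in another gene, mostly in each other, a small part of their reads may be split between them. MYL12B held 76.8 ± 0.578% of the regulatory light chain TPM in Ctrl and 74.9 ± 0.742% in Dox.

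Essential light chains stabilise the lever arm of the heavy chain. MYL6, the general non-muscle and smooth muscle form, was at 656, 617 and 644 TPM in Ctrl and at 794, 756 and 793 TPM in Dox. MYL6B, its neighbour in the genome, was at 364, 345 and 349 TPM in Ctrl and at 411, 395 and 435 TPM in Dox. For both genes every Dox library exceeded every Ctrl library, by a modest margin. The rises were 1.22-fold for MYL6 (log2 fold change 0.29 ± 0.03, limma adjusted p = 0.000264) and 1.17-fold for MYL6B (0.23 ± 0.04, adjusted p = 0.00238). The call of MYL6B is lost after median-ratio rescaling (0.12, adjusted p = 0.13) and with the length trend removed (0.13, adjusted p = 0.076).

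**Figure D3:**
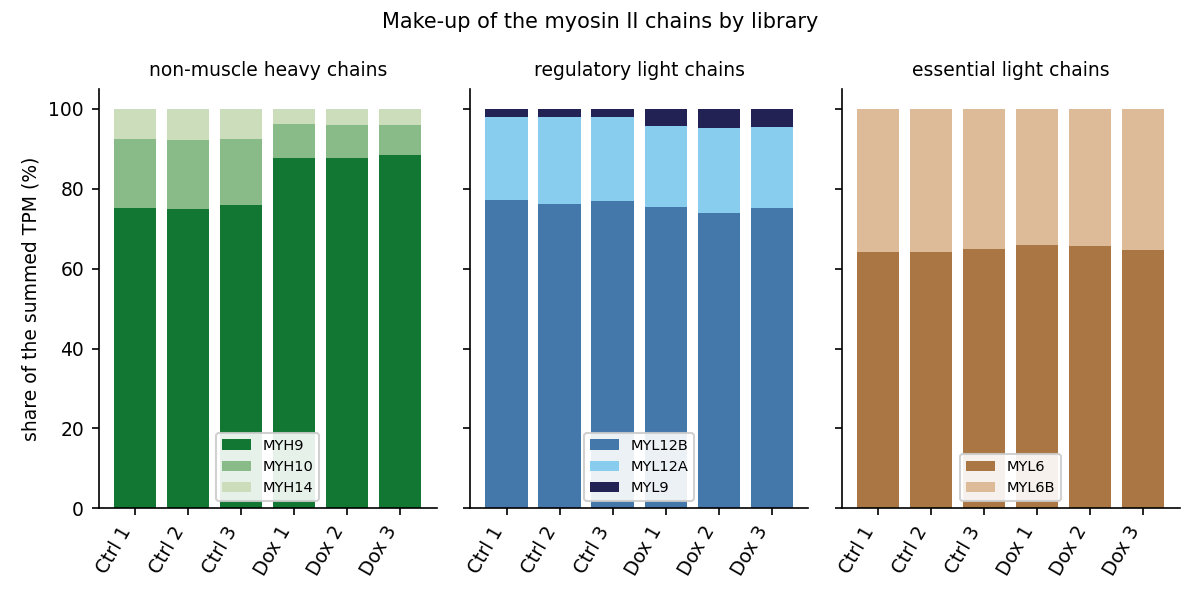
Share in percent of each chain in the summed TPM of the non-muscle heavy chains, the regulatory light chains and the essential light chains, in each library (stacked bars from 0 to 100%). MYH9 takes 75.0 to 75.9% of the heavy chains in Ctrl and 87.8 to 88.4% in Dox, while the split of MYL6 and MYL6B is nearly the same throughout.

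Light chain transcripts outnumbered heavy chain transcripts in both groups, and less so with doxycycline. The 3 heavy chains summed to 234 ± 13.3 TPM in Ctrl and 604 ± 43.7 TPM in Dox, 2.59-fold more. The regulatory light chains summed to 1236 ± 33.3 and 2165 ± 75.4 TPM, 1.75-fold more, and the essential light chains to 991 ± 28.9 and 1195 ± 39.2 TPM, 1.21-fold more. Regulatory light chain TPM per heavy chain TPM was 5.74, 4.89 and 5.27 in Ctrl and 4.06, 3.38 and 3.37 in Dox. The corresponding ratio for the essential light chains was 4.60, 3.88 and 4.29 in Ctrl and 2.18, 1.85 and 1.93 in Dox. Neither ratio overlapped between the groups, and no test was made on these sums. The 3 heavy chains have exon lengths over 8 kb, a range in which genes were higher with doxycycline in general. The light chains are shorter, at most 4609 bases, and the part of length in these ratios was not tested.

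Muscle heavy chains were barely detected at this depth. The 7 muscle heavy chains (MYH2, MYH3, MYH6, MYH7, MYH11, MYH13 and MYH15) had at most 7 reads, and at most 0.103 TPM, in any library. That includes MYH11, the smooth muscle heavy chain, at 0.00693 to 0.0511 TPM. The atrial and embryonic light chain gene MYL4 had at most 1 read. MYL3, the essential light chain of ventricle and slow muscle, was at 0.738, 1.05 and 1.38 TPM in Ctrl and 0.786, 1.07 and 0.836 TPM in Dox, which is 8 to 16 reads. Its groups overlapped (log2 fold change -0.11 ± 0.15, limma adjusted p = 0.582). MYL5, another regulatory light chain, was at 3.69 to 4.34 TPM in Ctrl and 4.12 to 4.38 TPM in Dox and did not pass (0.05 ± 0.08, adjusted p = 0.648). In GENCODE 29, 16.7% of the MYL5 exon sequence overlaps genes on the opposite strand, and no source used here states whether the counting used strand. Among the untested striated muscle heavy chains, summed reads over 3 libraries were 0 in Ctrl and 6 in Dox for MYH2, 0 and 7 for MYH6, 7 and 17 for MYH15, and 2 and 5 for MYH3. In TPM every Dox library of these 4 genes was above every Ctrl library, at few reads, whereas MYH7 (6 and 8) and MYH13 (6 and 2) overlapped. In reads the highest Ctrl library and the lowest Dox library were equal for MYH3, at 1, and for MYH15, at 4. None of these genes was tested, and no share of separated genes was computed at levels this low. No rise of muscle heavy chains is therefore read from these separations.

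Among the unconventional myosins MYO6 and MYO1C were the most abundant, together 60.9 to 62.2% of the summed TPM of the 24 genes in every library. MYO6, the motor that moves towards the pointed end of actin filaments and acts in endocytosis, was at 109, 119 and 116 TPM in Ctrl and at 168, 171 and 164 TPM in Dox. MYO1C, a class I motor that tethers membranes to actin, was at 73.0, 82.4 and 77.8 TPM in Ctrl and at 94.5, 102 and 98.9 TPM in Dox. Neither gene overlapped between the groups. MYO6 rose 1.46-fold (log2 fold change 0.55 ± 0.04, limma adjusted p = 2.42e-05) and MYO1C 1.26-fold (0.34 ± 0.05, adjusted p = 0.00103). The 24 genes summed to 314 ± 15.8 TPM in Ctrl and 428 ± 8.87 TPM in Dox, 1.37-fold more, against 2.59-fold for the non-muscle myosin II heavy chains. That difference between the classes was not tested.

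**Figure D4:**
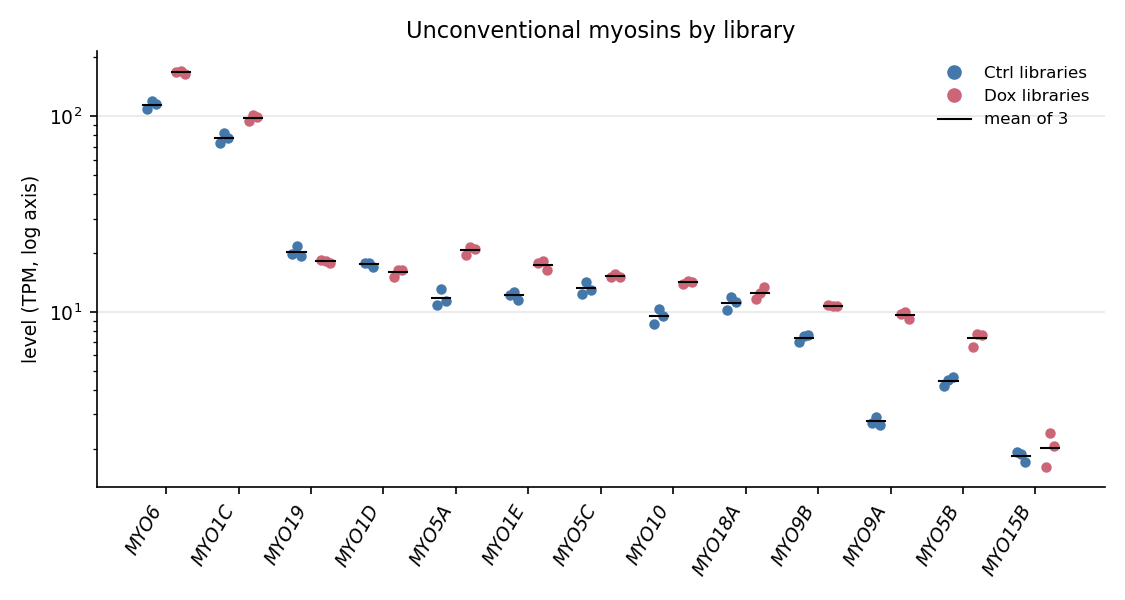
Level in TPM on a log axis of 13 of the 14 tested unconventional myosins in the 3 Ctrl and 3 Dox libraries (points), with group means (bars), ordered by mean level. MYO9A shows the widest gap between the groups, and MYO19 and MYO1D are the genes with every Dox library below every Ctrl library.

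The class IX motors carry a RhoGAP domain, which switches RhoA off, on the tail of the motor. MYO9A was at 2.70, 2.92 and 2.66 TPM in Ctrl and at 9.76, 10.0 and 9.17 TPM in Dox. The groups lay far apart, and the rise of 3.50-fold (log2 fold change 1.50 ± 0.07, limma adjusted p = 2.42e-06) was the largest of the tested unconventional myosins. On the log2(TPM + 1) scale it is understated, and with a pseudocount of 0.1 it was 1.77. Its relative MYO9B started at a higher level and moved less, from 7.03, 7.58 and 7.59 TPM in Ctrl to 10.8, 10.7 and 10.7 TPM in Dox (0.49 ± 0.06, adjusted p = 0.000313).

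Class I motors are single-headed and link membranes to the cortex, and those tested other than MYO1C did not move alike. MYO1E, found at endocytic sites and junctions, rose 1.44-fold from 12.1 ± 0.559 to 17.5 ± 0.926 TPM (log2 fold change 0.49 ± 0.06, limma adjusted p = 0.000356). MYO1D was at 17.8, 17.7 and 16.9 TPM in Ctrl and at 15.2, 16.5 and 16.4 TPM in Dox. All 3 of its Dox libraries were below the Ctrl libraries, and the log2 fold change of -0.12 ± 0.05 did not pass (adjusted p = 0.0909). It was called lower after median-ratio rescaling (-0.23, adjusted p = 0.0086), after quantile normalization (-0.28, adjusted p = 0.0039), with the length trend removed (-0.33, adjusted p = 0.0017) and by limma voom (-0.17, adjusted p = 0.011).

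Class V motors carry vesicles and organelles towards the cell edge. MYO5A was at 10.8, 13.0 and 11.3 TPM in Ctrl and at 19.6, 21.5 and 20.9 TPM in Dox, 1.76-fold higher (log2 fold change 0.77 ± 0.08, limma adjusted p = 0.000107). MYO5B, which serves recycling endosomes in epithelia, rose 1.65-fold from 4.45 ± 0.254 to 7.32 ± 0.623 TPM. For both genes the Dox libraries were well above the Ctrl libraries. MYO5C, the epithelial form, was at 12.4, 14.2 and 13.0 TPM in Ctrl and at 15.1, 15.6 and 15.2 TPM in Dox. Its call (0.20 ± 0.06, adjusted p = 0.027) rests on a narrow gap between the groups. It is lost after median-ratio rescaling (0.093, adjusted p = 0.14) and after quantile normalization (0.032, adjusted p = 0.56). Leaving out any single library but Ctrl 2 also ends it, with an adjusted p of 0.082 without Ctrl 1 or Ctrl 3, 0.056 without Dox 1, 0.083 without Dox 2 and 0.057 without Dox 3. With the length trend removed its sign turns (-0.046, adjusted p = 0.38).

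MYO10, a motor of filopodial tips, rose 1.49-fold from 9.53 ± 0.858 to 14.2 ± 0.220 TPM (log2 fold change 0.53 ± 0.07, limma adjusted p = 0.000497). MYO18A, which binds the Golgi and joins myosin II filaments, was at 10.2, 12.0 and 11.3 TPM in Ctrl and at 11.7, 12.5 and 13.4 TPM in Dox. Its groups overlapped and it did not pass (0.15 ± 0.08, adjusted p = 0.127). On the same strand, 9.3% of its exon sequence is shared with TIAF1. MYO15B was low, at 1.72 to 1.92 TPM in Ctrl and 1.61 to 2.39 TPM in Dox, and did not pass (0.08 ± 0.12, adjusted p = 0.608). MYO19, the motor bound to the outer mitochondrial membrane, was at 19.8, 21.8 and 19.4 TPM in Ctrl and at 18.4, 18.2 and 17.7 TPM in Dox. Each Dox library lay below each Ctrl library, and the log2 fold change of -0.15 ± 0.06 fell just short of the threshold (adjusted p = 0.0501). It was called lower with a pseudocount of 0.1 (-0.16, adjusted p = 0.049) and with a mean of at least 5 TPM (-0.15, adjusted p = 0.047). The value was -0.26 after median-ratio rescaling (adjusted p = 0.0021), -0.31 after quantile normalization (adjusted p = 0.00076), -0.44 with the length trend removed (adjusted p = 0.00014) and -0.20 in limma voom (adjusted p = 0.00081). Genes on the opposite strand cover 12.4% of its exon sequence.

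The other 10 unconventional myosins were not tested, with at most 0.228 TPM and 15 reads in any library. They include the sensory and brush border motors MYO3B, MYO7A, MYO7B, MYO15A and MYO1A. MYO7B, a motor of intestinal microvilli, had 2, 2 and 2 reads in Ctrl and 15, 13 and 10 reads in Dox. Its level stayed at 0.129 to 0.228 TPM in Dox, and no share of separated genes was computed at levels this low. MYO16 had no reads in Ctrl and 3, 2 and 2 reads in Dox, at or under a floor of 3 reads per library, so no fold is given. MYO1F, MYO1G, MYO1H and MYO18B had at most 8 reads in any library.

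Of the 24 tested myosins, 18 had all Dox libraries above all Ctrl libraries and 2 had all below, where 61.9% of all tested genes did not overlap, 40.8% wholly above and 21.1% wholly below. Many myosin transcripts are long, and long transcripts were higher with doxycycline in general. Of the 2121 tested genes with an exon length of 8 kb and over, 50% were called higher and 9.9% lower, with a median log2 fold change of 0.20, against 20.4% and 19.5% and a median of 0.01 in the 3557 genes under 2 kb. The 15 tested myosins of 8 kb and over had a median of 0.49, and 12 of them rose. With the length trend removed, 14 of the 24 tested myosins were higher and 2 lower, with a median of 0.19, where 22.8% of all genes were higher and 31.8% lower, with a median of -0.05. After median-ratio rescaling 16 were higher and 2 lower, against 26.4% and 27.0% of all genes, and after quantile normalization 17 and 2, against 23.8% and 29.3%. In all, 14 of the 18 were higher and past the threshold under each of the alternatives run, among them MYL9, MYH9, MYO9A, MYO5A, MYO5B, MYO6, MYO10, MYO1E, MYO9B, MYO1C, MYL12A, MYL12B and MYL6. The part of length in the other changes was not tested.

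**Figure D5:**
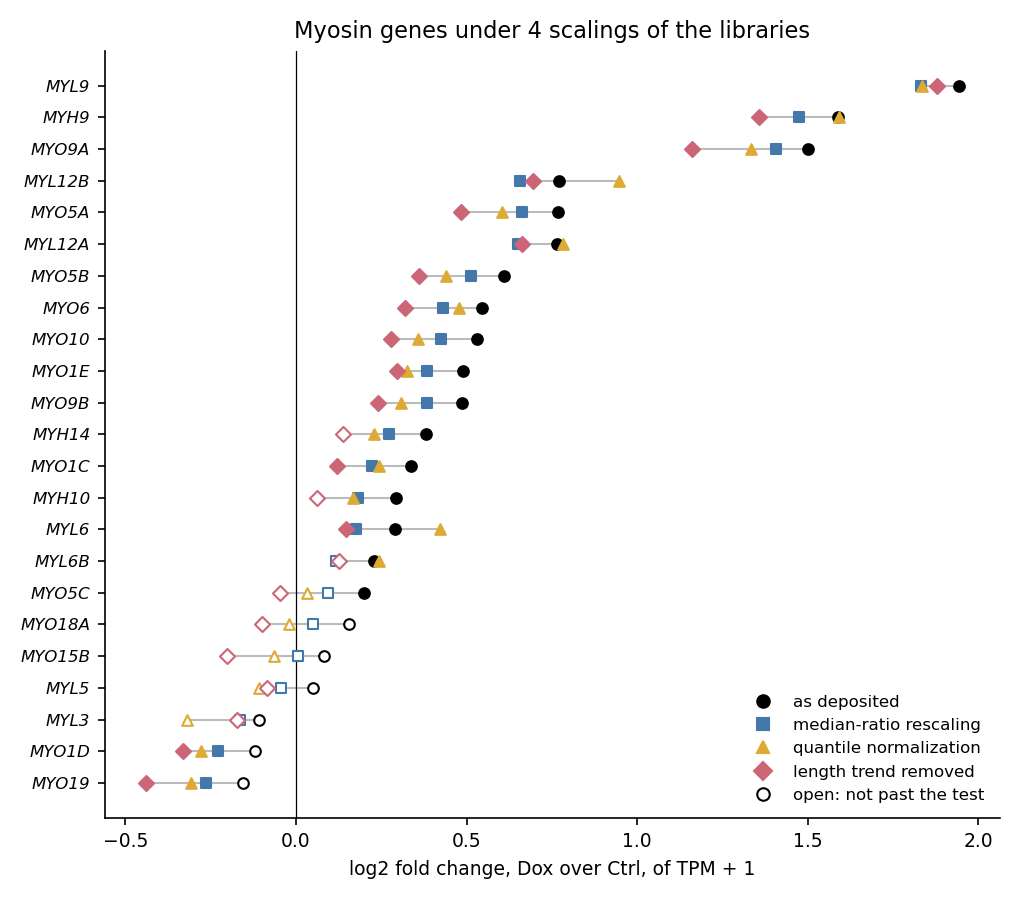
Log2 fold change of TPM + 1, Dox over Ctrl (horizontal axis), of 23 of the 24 tested myosin genes on the deposited scale and under median-ratio rescaling, quantile normalization and removal of the length trend; open symbols did not pass the test. MYL9, MYH9 and MYO9A stay above 1.16 in all 4, while MYO5C, MYO18A, MYO15B and MYL5 change sign.

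The pathway that sets myosin II activity was read on a list of RhoA, its exchange factors and inhibitors, and the kinases of the light chain. Of 23 tested members 19 rose and none fell by limma (none at an unadjusted p under 0.05, and none by limma voom), with a median log2 fold change of 0.48, against 0.10 over all tested genes, of which 35.9% rose and 17.8% fell. With the length trend removed 15 were higher and 2 lower, against 22.8% and 31.8% of all genes. The largest rise was that of RND3, an atypical small GTPase, from 2.54, 2.74 and 2.42 TPM in Ctrl to 55.4, 55.1 and 52.9 TPM in Dox (log2 fold change 3.96 ± 0.06, adjusted p = 1.05e-08). ARHGAP29 and ARHGAP35, which switch RhoA off, rose 8.20-fold to 74.0 ± 5.11 TPM and 3.06-fold to 208 ± 13.0 TPM.

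DAPK3, a kinase of the light chain, was at 24.0, 24.8 and 25.9 TPM in Ctrl and at 44.2, 51.1 and 47.8 TPM in Dox. The groups did not overlap, and it rose 1.91-fold (log2 fold change 0.91 ± 0.06, limma adjusted p = 1.26e-05). The dedicated kinase MYLK stayed low, at 1.75 to 2.10 TPM in Ctrl and 3.74 to 3.94 TPM in Dox, and passed the test (0.69 ± 0.09, adjusted p = 0.000507). RHOA itself was at 612 to 624 TPM in Ctrl and 639 to 659 TPM in Dox and did not pass (0.07 ± 0.03, adjusted p = 0.0573).

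Among 7 tested genes of myosin phosphatase and its inhibitors, 2 rose and 3 fell, against 35.9% and 17.8% of all tested genes. With the length trend removed the counts were again 2 and 3, against 22.8% and 31.8% of all genes. In a list of 7 genes no difference from these shares is read. Limma voom called 4 higher and 3 lower. PPP1R12A, the subunit that targets the phosphatase to myosin, rose 1.60-fold from 20.1 ± 1.62 to 32.2 ± 0.760 TPM, and its partner MPRIP rose 1.42-fold. The phosphatase inhibitors PPP1R14B and PPP1R14C fell by 0.50 and 0.39 on the log2 scale, PPP1R14B from 176 ± 5.48 to 124 ± 2.20 TPM. The catalytic subunit PPP1CB fell by 0.16, a call that ends with no filter on low values (limma adjusted p = 0.074), without the variance trend (0.074) and with a replicate block (0.066). The adjusted p is also above the threshold when Ctrl 2 (0.052), Ctrl 3 (0.11), Dox 1 (0.065) or Dox 3 (0.093) is left out.

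Calmodulin, the light chain of many unconventional myosins, is encoded by several genes, and all 4 tested members of that list rose, where 35.9% of all tested genes did. Of these 4, 2 were called after median-ratio rescaling and 2 with the length trend removed, against 26.4% and 22.8% of all genes. CALM2 rose 1.74-fold from 179 ± 4.63 to 311 ± 18.3 TPM and CALML4 1.85-fold to 27.4 ± 0.836 TPM. CALM3 rose 1.14-fold from 550.6 ± 11.05 to 629.9 ± 8.85 TPM, and its call holds neither after median-ratio rescaling (limma adjusted p = 0.073) nor with the length trend removed, where it stood at 0.076 (adjusted p = 0.058). None of the 4 fell by limma, at an unadjusted p under 0.05 or by limma voom.

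Chaperones and partners of the actomyosin filament rose in 11 of 12 cases on the deposited scale, against 35.9% of all tested genes. None fell by limma on that scale (none at an unadjusted p under 0.05), against 17.8% of all tested genes, and limma voom called 1 lower. With the length trend removed 9 were higher and 1 lower, against 22.8% and 31.8% of all genes. The counts were 10 and 1 after median-ratio rescaling, against 26.4% and 27.0%. After quantile normalization they were also 10 and 1, against 23.8% and 29.3%. CALD1, the actin and myosin binding protein caldesmon, rose 2.12-fold from 110 ± 3.65 to 233 ± 6.84 TPM. LIMCH1, which activates non-muscle myosin II, rose 2.05-fold to 625 ± 21.6 TPM, and the scaffold ANLN rose 1.88-fold to 122 ± 6.96 TPM. SVIL, a membrane-bound actin and myosin II binding protein, rose from 0.650 ± 0.215 to 2.33 ± 0.133 TPM. It reached 1 TPM in the Dox libraries only and so entered the test through the group where it is high. Its place among the 11 that rose is therefore no independent support.

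The cargo adaptors of unconventional myosins were mixed, with 10 of 18 called higher and 4 called lower (7 and 5 under median-ratio rescaling, and 7 and 6 with the length trend removed). Over all tested genes the shares were 35.9% higher and 17.8% lower (26.4% and 27.0%, and 22.8% and 31.8%, under those settings), so the lower calls lay near the background. DAB2, a clathrin adaptor bound by MYO6, rose from 0.105 ± 0.0177 to 2.74 ± 0.374 TPM. This gene reached 1 TPM in the Dox libraries only and so entered the test through the group where it is high. Its place among the 10 called higher is therefore no independent support. TOM1L2 and TAX1BP1, which also bind MYO6, rose 2.16-fold and 1.65-fold, and the Rab GTPase RAB8A rose 1.98-fold to 97.8 TPM. The autophagy receptor CALCOCO2, another MYO6 partner, fell from 48.9 ± 1.54 to 41.8 ± 1.63 TPM. MYRIP fell by 0.37 and MLPH by 0.19 on the log2 scale; both link RAB27A to myosins. RAB10 fell by 0.15 on that scale. The calls of these 3 lie near the threshold, at a limma adjusted p of 0.018 for MYRIP, 0.025 for MLPH and 0.036 for RAB10. Each is lost when any of several libraries is left out, with its direction kept. That of MYRIP is lost without Ctrl 1, Ctrl 3 or Dox 3 (limma adjusted p of 0.053 to 0.065). That of MLPH is lost without Ctrl 2, Ctrl 3, Dox 1 or Dox 2 (adjusted p of 0.055 to 0.07). That of RAB10 is lost without any library but Ctrl 1 (adjusted p of 0.069 to 0.12), and also without the filter or the variance trend (0.079).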

How the data were processed

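RNA-seq libraries (TruSeq stranded mRNA kit, per the labels' protocols) of 3 Ctrl and 3 Dox samples were grouped by their titles. Per the submitters' processing notes, FastQC 0.11.2, STAR 2.5.3a, featureCounts and edgeR were used with build hg19; no source used here gives their roles, the annotation release or the strand setting. The deposited table holds TPM values made by the authors, scaled to 1000000 per library, so values are relative within a library.

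Genes that reached 1 TPM in 3 or more of the 6 libraries were fitted together with limma 3.58.1 in R 4.3.3 on log2(TPM + 1), with a mean-variance trend, two-sided, Benjamini-Hochberg adjusted over 14833 genes, threshold 0.05. A fold on this scale understates changes of low genes; folds without "log2" are ratios of mean TPM. Whole reads were recovered from the TPM values, within 0.01 reads in all 6 libraries, with the GENCODE 29 exon length for 9115 genes and the smallest whole length that fits for 5718; on simulated reads 99.7% of genes had every count right. Where the true counts of a gene have a common factor, the recovered ones are too small. The reads gave depth, lengths and the voom alternative. Promoters are from RefSeq (34 of 42 members matched by symbol); exon overlaps and 50-base stretches are from GENCODE 29 (41 members matched by identifier, MYO19 by symbol), and no gene coordinates are given because the files use hg19.

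The members, lists and tests were chosen with earlier results of these data known. Named were all tested members, up to 4 called genes with the largest rise and fall per list, and YAP1, CTGF and other genes chosen after their values were seen: DAPK3, MYLK, RHOA and TNNC1. Some genes that this rule takes in enter the fits, sums and counts but are not reported here by name. The fits and the recovery were tested on simulated data. Figures were drawn with matplotlib 3.10.9.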

Additional observations from a re-analysis of the deposited data

How the results depend on the processing

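Alternatives were a pseudocount of 0.1, no filter, a 5 TPM minimum on the mean, quantile normalization, median-ratio rescaling, no variance trend, a replicate block, removal of each library's length trend (loess, span 0.3), block and length together, each library left out, and limma voom on recovered reads. The myosin count of 18 higher ranged from 14 to 18, and 14 of the 18 were higher and called in all of them. Lower calls among the myosins, all unconventional, went from 0 to 1 with a pseudocount of 0.1 or a mean of at least 5 TPM, and to 2 with either rescaling, the length trend removed (with or without the block) and limma voom. Non-muscle myosin II calls fell from 8 to 5 with the length trend removed, also with the block. Leaving out 1 library gave 17 to 18 myosins higher, 9 to 10 unconventional and 8 of 8 non-muscle myosin II. Over all genes, higher calls were 3536 after quantile normalization, 3381 with the length trend removed and 3220 with block and length together, and lower calls 4348, 4720 and 4536, with 4010 after median-ratio rescaling, against 5319 and 2640. Median-ratio rescaling moved the median of all genes by -0.10, quantile normalization by -0.13 and removal of the length trend by -0.14 on the log2 scale. The cause of these shifts was not tested.

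Signs turned in 5 named genes. MYL5 stood at -0.0435 after median-ratio rescaling, -0.109 after quantile normalization, -0.0863 with the length trend removed (with or without the block) and between -0.0022 (without Ctrl 2) and 0.0915 with a library left out. MYO15B was at -0.0648 after quantile normalization, -0.20 with the length trend removed (same with the block) and between -0.0051 (without Dox 2) and 0.1844 with a library left out. MYO18A was at -0.0198 after quantile normalization and -0.10 with the length trend removed (same with the block). MYL3 ranged from -0.2237 to 0.0043 (without Ctrl 3) with a library left out. MYO5C stood at -0.0460 with the length trend removed, with and without the block.

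Same-numbered Ctrl and Dox libraries did not deviate together (Pearson r across genes of -0.0085, 0.063 and 0.0035 for numbers 1, 2 and 3), so the numbers are not taken as pairs. With the replicate block the myosin counts were again 18 higher and 0 lower, over all genes 5223 were higher and 2618 lower, and PPP1CB was the one named gene to lose its call. Depth limits the muscle myosins, with at most 7 reads per library, and MYL3, with 8 to 16.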
